A study of Caenorhabditis elegans with 12 samples.

Results

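The transcripts of unc-13, egl-21 and ida-1, which serve the release of neurotransmitter and neuropeptide, were followed in early Caenorhabditis elegans embryos that lack MET-2, LIN-65 or both. These 3 genes were taken by WormBase symbol from the union of 3 tables in which the authors deposited log2 values of genes selected in each mutant, and they are 3 of 2949 genes there. All 3 stood above wild type in every library of every mutant, as did 84.6% of the 2949 genes. Their means were highest in the double mutant and lowest in the lin-65 mutant. The medians of all genes had the same order, at 1.47 in the double mutant, 1.20 in met-2 and 0.83 in lin-65. The double mutant did not pass against met-2 for any of the 3 genes with all libraries weighted equally. Because the genes come from tables selected on these log2 values, their levels against wild type are given as a description with no test. The strains were N2 (Bristol) as wild type, met-2(n4256) on chromosome III, a lin-65 deletion labelled lin-65(delta) on chromosome I, and the strain that carries both alleles, called the double mutant here. Each strain had 3 libraries of total RNA from which ribosomal RNA had been removed. Worms were kept at 20 °C for 60 to 65 h after synchronization, depending on the strain, and the embryos held 1 to 300 cells. The labels place the embryos before the bean stage and give no growth time per strain, so growth time and genotype cannot be told apart here.

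UNC-13 is a large presynaptic protein that readies docked synaptic vesicles for fusion by acting on the syntaxin UNC-64, and worms without it hardly release transmitter. Neuropeptides travel a separate route: precursors are packed into dense core vesicles, cut by the proprotein convertase EGL-3 and trimmed by EGL-21, a carboxypeptidase E that removes the basic residues left at the cut ends. IDA-1, the worm relative of the vertebrate protein phogrin, is a phosphatase-like protein of the dense core vesicle membrane. In the worm these genes are known mainly from neurons and neurosecretory cells, most of which mature after the stages collected here. MET-2 is a histone methyltransferase of the SETDB1 family that acts on histone H3 lysine 9, and LIN-65 is its cofactor.

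Values were available for the 9 mutant libraries, as log2 ratios whose baseline no header names. The baseline was read as N2, because lin-65 (WBGene00022149) stood at −5.88 ± 0.09 (SD, n = 3) in the lin-65 mutant and −0.22 ± 0.04 in met-2, and met-2 (WBGene00019883) at −2.36 ± 0.04 in met-2 and −0.02 ± 0.08 in the lin-65 mutant. The tables hold no counts, so the depth is unknown and no error that needs it is given. The median over all 2949 genes was 1.53 in met-2 replicate 1 against 1.06 and 1.08 in replicates 2 and 3, so that library stands apart. The tests between mutants, the list counts and the comparison with the sum of the single mutants are also given without it where they move. The medians were 0.77 to 0.97 in lin-65, and the double mutant had 1.47 to 1.49. All following values after ± are SDs over 3 libraries, which describe the spread of the mutant libraries and not that of N2. Where 3 means follow a gene name, they stand for met-2, then lin-65, then the double mutant.

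unc-13 (WBGene00006752, chromosome I, 11 annotated transcripts that the values do not separate) was the highest of the 3 genes in every library. In met-2 its log2 ratio to N2 was 2.86, 2.005 and 2.21 in replicates 1, 2 and 3, a mean of 2.36 ± 0.45 or 5.13-fold. In lin-65 it was 1.44, 1.71 and 1.41, a mean of 1.52 ± 0.16 or 2.87-fold. The double mutant gave 2.83, 2.79 and 2.90, a mean of 2.84 ± 0.05 or 7.15-fold. The lin-65 libraries lay below all others, and met-2 replicate 1 lay within the range of the double mutant while the other met-2 libraries lay below it. Among the 2949 genes the mean of unc-13 stood above 96.6% of genes in met-2, above 91.9% in lin-65, and above 97.3% where both were lost.

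egl-21 (WBGene00001189, chromosome IV) had the tightest values of the 3 genes in lin-65 and the widest in met-2. Its log2 ratio to N2 in met-2 was 2.61, 1.59 and 1.61, a mean of 1.94 ± 0.58 or 3.83-fold. In lin-65 it was 1.04, 1.05 and 1.03, a mean of 1.04 ± 0.01 or 2.05-fold. That is just above a 2-fold limit, which is inferred from the smallest absolute means in the tables and is not stated. In the double mutant it was 2.41, 2.36 and 2.22, a mean of 2.33 ± 0.10 or 5.03-fold. The met-2 mean rests on replicate 1, without which it was 1.60, and that replicate was higher than every double mutant library. The place of egl-21 among all genes was the same in met-2 (above 88.9%) and the double mutant (above 88.9%) and lower in lin-65 (above 66.7%).

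ida-1 (WBGene00002048, chromosome III) spanned the smallest range of mutant means among the 3 genes. Its log2 ratio to N2 was 1.91, 1.36 and 1.57 in met-2, a mean of 1.61 ± 0.28 or 3.06-fold. In lin-65 it was 1.10, 1.22 and 1.26, a mean of 1.19 ± 0.08 or 2.29-fold. In the double mutant it was 2.16, 2.04 and 1.95, a mean of 2.05 ± 0.10 or 4.14-fold. The libraries of the 3 mutants did not overlap, and all double mutant libraries were above all met-2 libraries, which were above all lin-65 libraries. Its mean stood above 75.8% of all genes in met-2, above 78.0% in lin-65, and above 80.4% where both were lost. Within ida-1 the annotation places 3 small RNA genes (2 tRNAs and 1 ncRNA), none of which has values in the tables; no annotated gene overlaps unc-13 or egl-21.

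**Figure D1:**
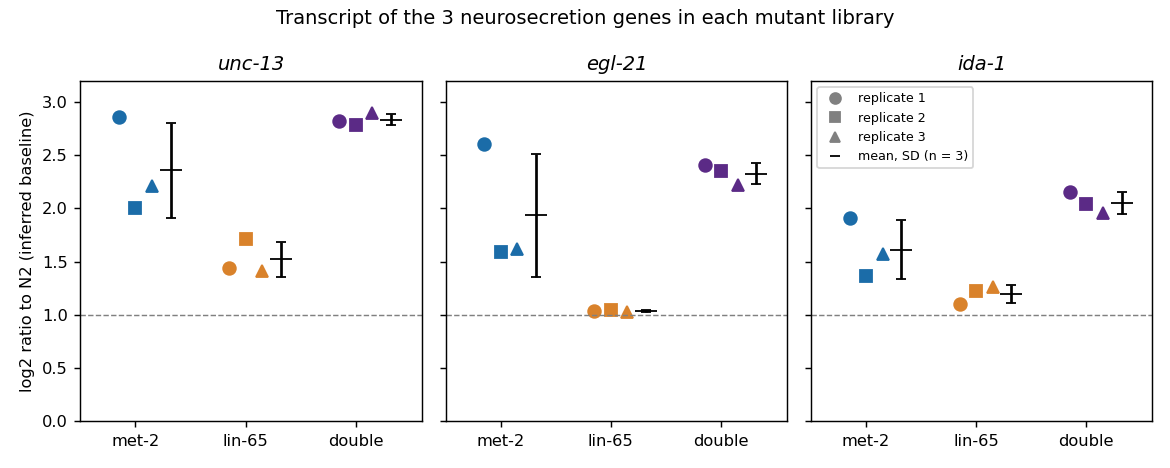
Log2 ratio to N2 of unc-13, egl-21 and ida-1 in each of the 9 mutant libraries (vertical axis), by mutant (horizontal axis); symbols mark the replicate, bars the mean and SD of 3 libraries, and the dashed line a ratio of 2-fold. Every point lies above the dashed line, lin-65 is lowest in each panel, and met-2 replicate 1 is above the other met-2 libraries for all 3 genes.

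The order of the mutants was tested on differences between them, which do not depend on the N2 baseline. limma was fitted to the log2 values of all 2949 genes over the 9 libraries, with Benjamini-Hochberg adjustment over all genes at 0.05. The double mutant exceeded lin-65 for all 3 genes, in a comparison in which 74.3% of all genes were called higher. The difference was 1.32 log2 units for unc-13 (SE 0.21, limma adjusted p = 6.71e-05), 1.29 for egl-21 (SE 0.23, limma adjusted p = 0.000165) and 0.86 for ida-1 (SE 0.18, limma adjusted p = 0.000627). The median difference of all genes was 0.70, so that ida-1 exceeded it by 0.16 and unc-13 and egl-21 by 0.62 and 0.59. No library of one mutant overlapped the other for any of the 3 genes, as for 77.9% of all genes, while 5.9% did not overlap in the lower direction and 4.61% were called lower. With each library centred on its median, 21.6% of all genes were called higher and 16.5% lower. The differences were then 0.67 for unc-13 and 0.65 for egl-21, both still called (limma adjusted p = 0.00129 and 0.00733), and 0.21 for ida-1, no longer called (limma adjusted p = 0.154).

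lin-65 was lower than met-2 for unc-13 and egl-21, in a comparison in which 41.9% of all genes were called lower. The difference was −0.84 for unc-13 (SE 0.21, limma adjusted p = 0.00396) and −0.90 for egl-21 (SE 0.23, limma adjusted p = 0.00466). For ida-1 it was −0.42 (95% interval −0.80 to −0.04, limma adjusted p = 0.0645), which did not pass and equalled the median difference of all genes, −0.42. The lin-65 libraries lay below every met-2 library for all 3 genes, as for 47.1% of all genes, while 5.8% did not overlap in the higher direction and 4.92% were called higher. With centred libraries, 17.7% of all genes were called lower and 12.4% higher, and both genes were still called lower, by −0.45 and −0.51 (limma adjusted p = 0.0126 and 0.0275). Without met-2 replicate 1 the difference of egl-21 was −0.56 and still passed (limma adjusted p = 0.00472), whereas with each gene's own variance egl-21 missed the threshold (adjusted p = 0.0537, not moderated by limma). ida-1 passed without met-2 replicate 2 at −0.54 (limma adjusted p = 0.0261) and with library weights at −0.34 (limma adjusted p = 0.0377), and stood at −0.27 without met-2 replicate 1.

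Between the double mutant and met-2 none of the 3 genes passed with all libraries weighted equally, where 11.8% of all genes were called higher and 4.92% lower. The differences were 0.48 for unc-13 (95% interval 0.04 to 0.91, limma adjusted p = 0.0995), 0.39 for egl-21 (−0.09 to 0.87, limma adjusted p = 0.186) and 0.44 for ida-1 (0.06 to 0.82, limma adjusted p = 0.0872), beside a median of 0.32 over all genes. Before adjustment 2 of the 3, unc-13 and ida-1, were under 0.05. The share of all genes under that unadjusted limit is not given here, so this counts as no call. Only ida-1 had libraries that did not overlap, as for 27.7% of all genes in the higher and 8.07% in the lower direction. With centred libraries, 4.85% of all genes were called higher and 9.22% lower, and again none of the 3. On the deposited scale the outcome turned on met-2 replicate 1. Without it the differences were 0.73, 0.73 and 0.59, each passed (limma adjusted p = 0.00207, 0.00119 and 0.00425), and 59.7% of all genes were then called higher. All 3 also passed with 9 libraries weighted by their spread, at 0.65, 0.68 and 0.51 (limma adjusted p = 0.000354, 0.000321 and 0.00127), where 67.5% of all genes were called higher. That setting gave met-2 replicate 1 a weight of 0.11, against 0.80 and 2.635 for replicates 2 and 3. It therefore largely repeats leaving replicate 1 out. With 1 weight per strain none of the 3 passed (limma adjusted p = 0.128, 0.201 and 0.127). An exact permutation test of 3 against 3 libraries, 2-sided, cannot give a p below 0.10, and gave 0.1 for each of the 7 comparisons of a gene in which the libraries did not overlap. For the double mutant against met-2 it gave 0.3 for unc-13 and 0.4 for egl-21 (exact permutation test).

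**Figure D2:**
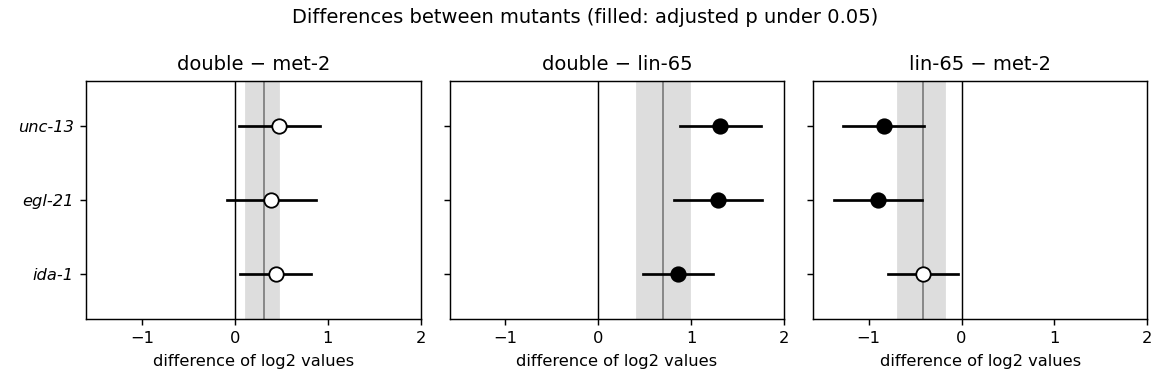
Difference of log2 values between mutants (horizontal axes) for each gene; points are limma estimates, lines their 95% intervals, and filled points passed at an adjusted p of 0.05. The grey line and band are the median and the middle 50% of the differences of all 2949 genes; unc-13 and egl-21 lie outside the band in both comparisons with lin-65, and ida-1 lies within it in all 3 comparisons.

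Setting 1 gene against another within a library removes any scaling of that library. unc-13 exceeded egl-21 in all 9 libraries, by 0.42 ± 0.17 log2 units in met-2, by 0.48 ± 0.15 in lin-65, and by 0.51 ± 0.15 where both were lost. These differences overlapped between all mutants (exact permutation test, p from 0.5 to 0.7). The distance between unc-13 and ida-1 was smaller in lin-65. It was 0.96, 0.64 and 0.64 in met-2, 0.34, 0.48 and 0.15 in lin-65, and the double mutant gave 0.67, 0.75 and 0.94. The lin-65 libraries lay below the others without overlap (exact permutation test, p = 0.1 against either mutant, the smallest it can give).

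The sign of the difference between egl-21 and ida-1 was not the same in all mutants. egl-21 minus ida-1 was 0.70, 0.23 and 0.05 in met-2, −0.06, −0.18 and −0.23 in lin-65, and the double mutant gave 0.26, 0.31 and 0.27. The sign was positive in 6 of 6 libraries of met-2 and the double mutant and negative in 3 of 3 lin-65 libraries. Where 0 falls rests on the N2 levels of both genes, whose spread is unknown. Values as near 0 as 0.05 and −0.06 therefore leave the sign itself uncertain. Means were 0.33 ± 0.34, −0.16 ± 0.09 and 0.28 ± 0.03, and the lin-65 libraries did not overlap those of either other mutant. From met-2 to lin-65, ida-1 changed by the median of all genes (−0.42) and egl-21 by −0.90. How many of all genes separate from ida-1 without overlap, as unc-13 also did, was not counted. Without met-2 replicate 1 the met-2 mean was 0.14, and the remaining met-2 libraries still lay above lin-65. The exact permutation test gave p = 0.1 for lin-65 against either other mutant, the smallest it can give. This pair was singled out after its values were seen, for this separation. That p is therefore no support, and the pair is given as a description.

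**Figure D3:**
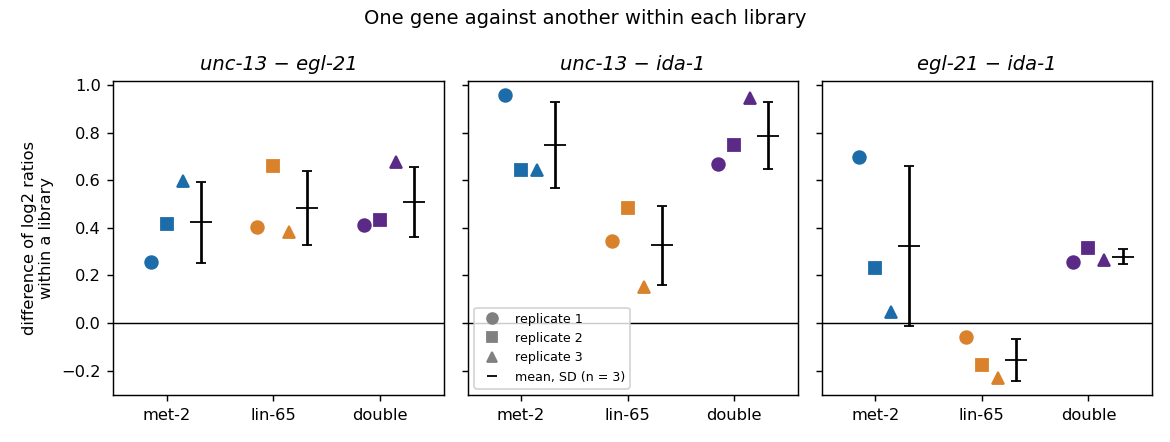
Difference between the log2 ratios of 2 genes in the same library (vertical axis) by mutant (horizontal axis); symbols mark the replicate, and bars the mean and SD of 3 libraries. unc-13 minus egl-21 overlaps between mutants, whereas both differences that involve ida-1 are lowest in lin-65, and egl-21 minus ida-1 falls below 0 there.

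The authors listed the 3 genes unequally. All 3 are listed as higher in the met-2 table, as are 65.2% of the 2949 genes, and in that of the double mutant, as are 85%. In the lin-65 table, which lists 29% higher, only ida-1 is held, although unc-13 had the larger mean. Of the 165 other genes whose lin-65 mean lay within 0.1 log2 units of that of unc-13, 148 (89.7%) are in the lin-65 table. For egl-21 the corresponding count was 219 of 438 genes, and for ida-1 it was 267 of 373 (71.6%). The rule behind the selection is not given in the sources used here, and absence from a table is not a measurement of no change.

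The other genes of vesicle release were sorted by role, and only those that the tables hold have values. Their calls stand beside 74.3% of all genes called higher in the double mutant than in lin-65 and 41.9% called lower in lin-65 than in met-2. With each library centred on its median these shares were 21.6% and 17.7%, and without met-2 replicate 1 they were 79.2% and 31%. Of 17 genes of vesicle priming and fusion 5 had values, all above 0 in all 9 libraries and all listed higher in met-2 and the double mutant and none in lin-65. List medians were 1.34, 0.67 and 1.69, beside 1.20, 0.83 and 1.47 over all genes. All 5 were called higher in the double mutant than in lin-65, and the 4 other than ric-4 were called lower in lin-65 than in met-2. Centring left 3 in each comparison. After unc-13 came the calcium sensor synaptotagmin snt-1 at 1.62 ± 0.71, 0.67 ± 0.33 and 2.07 ± 0.13, and the SNARE protein gene ric-4 (SNAP-25) at 1.23 ± 0.34, 0.88 ± 0.10 and 1.69 ± 0.09. The complexin cpx-1 stood at 1.34 ± 0.45, 0.55 ± 0.07 and 1.34 ± 0.04. UNC-13's partners unc-64, unc-18 and unc-10, and unc-31, which acts in dense core vesicle release, are in none of the tables and were not analysed here.

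Active zone and calcium entry genes were held most completely, with 10 of 13 and medians of 1.76, 1.15 and 2.22. All 10 were called higher in the double mutant than in lin-65, and 5 were called lower in lin-65 than in met-2. Centring left 5 and 2. Their highest member was the active zone scaffold cla-1 at 2.62 ± 0.35, 1.72 ± 0.12 and 3.06 ± 0.09, above unc-13 in each mutant. The calcium channel subunits egl-19 and unc-36 stood at 2.48 ± 0.10 and 2.33 ± 0.12 in the double mutant. There ccb-1 and unc-2 of the same list stood at 1.96 ± 0.08 and 1.18 ± 0.06. unc-2 had the lowest mean of the list over the 9 libraries, with 0.92 ± 0.30 in met-2 and 0.46 ± 0.17 in lin-65. syd-1, which organizes presynaptic assembly, stood at 2.39 ± 0.06 in the double mutant. Of genes of vesicle proteins, transport and recycling 8 of 17 had values, led by the endocytic adaptor unc-41 at 1.72 ± 0.41, 1.20 ± 0.08 and 2.27 ± 0.04. Their medians were 1.27, 0.81 and 1.58, all 8 were called higher in the double mutant than in lin-65, and 3 (unc-41, rbf-1 and rab-3) were called lower in lin-65 than in met-2. Centring left 2 and 0 of these calls, and without met-2 replicate 1 only 1 of 8 was lower in lin-65 than in met-2.

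Transmitter synthesis and loading genes gave 11 of 18 with values, with medians of 1.18, 0.66 and 1.56. The vesicular acetylcholine transporter unc-17 stood at 1.66 ± 0.69, 0.77 ± 0.11 and 2.03 ± 0.02, and the GABA-synthesizing enzyme unc-25 at 1.51 ± 0.59, 0.62 ± 0.41 and 2.06 ± 0.11. unc-17 shares its locus with the choline acetyltransferase gene cha-1, so reads may have been divided between them. Of the 11 genes 9 were called higher in the double mutant than in lin-65, and 8 lower in lin-65 than in met-2. Centring left 3 and 1, and without met-2 replicate 1 4 were lower in lin-65. The tyrosine decarboxylase tdc-1 was called in the opposite direction in both comparisons, at −0.14 ± 0.05 in met-2, 1.16 ± 0.15 in lin-65 and 0.66 ± 0.05 with both lost.

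Of 13 genes of neuropeptide processing 7 had values, and egl-21 was second to the neprilysin-like peptidase nep-2, which stood at 2.04 ± 0.38, 1.32 ± 0.13 and 2.47 ± 0.02. The convertase egl-3, which acts just before EGL-21, stood lower, at 1.22 ± 0.27, 0.55 ± 0.11 and 1.29 ± 0.12, and its chaperone sbt-1 at 1.35 ± 0.33, 0.73 ± 0.13 and 1.58 ± 0.23. The enzymes of peptide amidation pgal-1 and pghm-1 were the lowest in lin-65, at 0.25 ± 0.02 and 0.14 ± 0.14. All 7 genes were called lower in lin-65 than in met-2 and higher in the double mutant than in lin-65. Centring left 3 and 4 of these calls.

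ida-1 was the highest of only 3 genes with values among 16 of dense core vesicle biogenesis and release. The others were the coiled-coil protein gene cccp-1 at 1.45 ± 0.27, 0.92 ± 0.13 and 1.79 ± 0.07, and rund-1 at 0.64 ± 0.48, 0.42 ± 0.19 and 1.19 ± 0.10. All 3 were called higher in the double mutant than in lin-65 and only cccp-1 lower in lin-65 than in met-2, and centring left 0 of either. The cargo of these vesicles, precursors of the flp, nlp, snet and pdf families, had values for 24 of 105 genes. Medians were 1.04, 0.50 and 1.33, with 20 called higher in the double mutant than in lin-65 and 16 lower in lin-65 than in met-2. Centring left 9 and 10. Of these precursors nlp-49, nlp-30, flp-1 and nlp-33 had the highest means over the 9 libraries. flp-1, an FMRFamide-like peptide gene, stood at 1.65 ± 0.64, 1.00 ± 0.05 and 2.07 ± 0.15. nlp-29, nlp-30 and nlp-33 belong to a group known for antimicrobial peptides of the epidermis. Insulin-like genes had values for 6 of 39, with ins-1 highest at 2.23 ± 0.34, 1.17 ± 0.17 and 2.27 ± 0.22 and ins-10 lowest at −0.94 ± 0.18, −0.53 ± 0.05 and −1.02 ± 0.12.

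Over all these lists and a list of neuronal markers, 82 of 251 genes had values, and 71 of them lay above 0 in all 9 libraries (86.6%, against 84.6% of all genes). The double mutant was called higher than lin-65 for 73 of the 82 and lower for 2, where all genes gave 74.3% and 4.61%. lin-65 was called lower than met-2 for 52 and higher for 2, against 41.9% and 4.92% of all genes. The double mutant was called higher than met-2 for 4 genes (syd-1, tdc-1, unc-7 and ins-6), or 4.88% against 11.8% of all genes, and lower for ins-30, or 1.22% against 4.92%. Without met-2 replicate 1, 77 of the 82 (93.9%, all genes 79.2%) were higher in the double mutant than in lin-65. Then 38 (46.3%, all genes 31%) were lower in lin-65 than in met-2, and 54 (65.9%, all genes 59.7%) were higher in the double mutant than in met-2. With each library centred on its median, 31 genes (37.8%, all genes 21.6%) were called higher in the double mutant than in lin-65 and 22 (26.8%, all genes 17.7%) lower in lin-65 than in met-2. These counts cover genes that passed the authors' selection and include unc-13, egl-21 and ida-1.

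**Figure D4:**
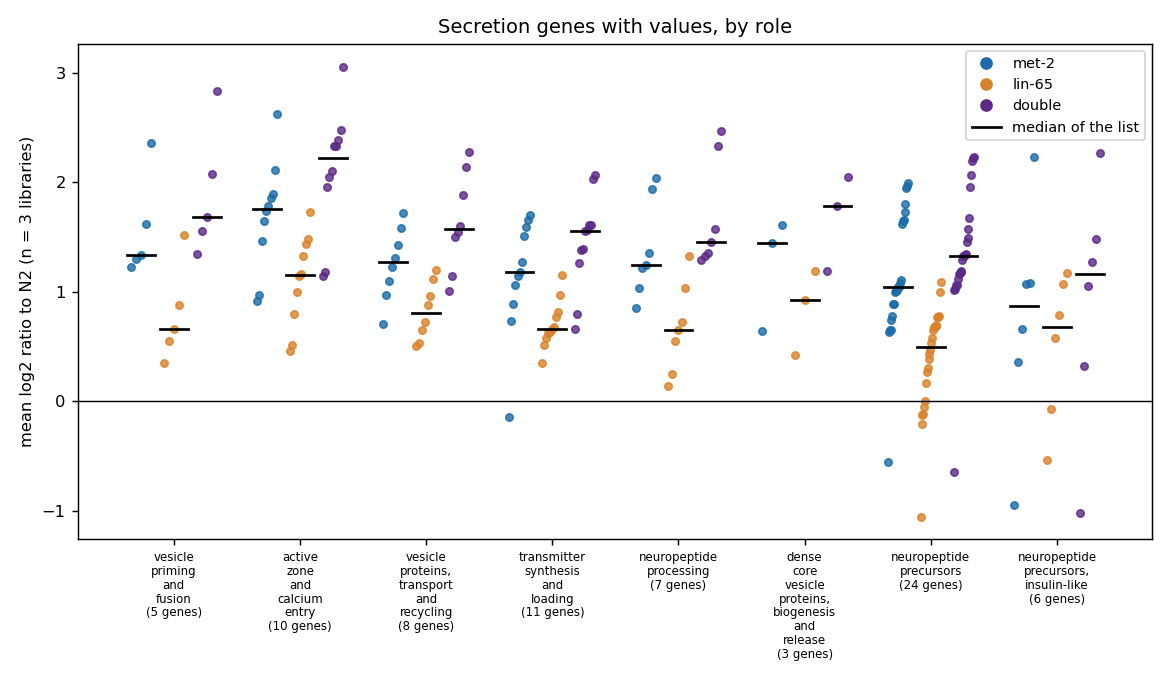
Mean log2 ratio to N2 over 3 libraries (vertical axis) of every listed gene with values, by role (horizontal axis) and mutant (colour); black lines are list medians. In each list the median is lowest in lin-65 and highest in the double mutant; tdc-1, at −0.14 in met-2, lies below 0 in the transmitter list.

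The genes of most similar profile, by the root mean square difference of the log2 values over the 9 libraries, came from none of these lists for unc-13 and egl-21. For unc-13 they were mct-4, Y16B4A.2, lips-3, sorb-1 and the hemicentin gene him-4, at 0.11 to 0.13 log2 units, where the median gene differed by 1.17. For egl-21 they were the aspartyl protease asp-3, the collagen col-118, clik-1, the saposin-like spp-16 and K03B8.6, at 0.13 to 0.14 against a median of 0.77. For ida-1 they were F55D12.2, slo-1, F55H12.3, ttr-2 and H11E01.3, at 0.09 to 0.11 against a median of 0.61. slo-1, of the active zone list, encodes a calcium-activated potassium channel that restrains transmitter release, and stood at 1.74, 1.15 and 2.04. Among the 3 genes the distance was 0.31 between egl-21 and ida-1, 0.49 between unc-13 and egl-21, and 0.67 between unc-13 and ida-1. None is among the 5 nearest genes of another, so these distances are larger by construction. The measure includes any constant difference in level. Pearson r over the 9 libraries, which leaves level out, was 0.953, 0.976 and 0.962 for these pairs. It was 0.965 to 0.996 for the nearest genes named, and its values over all genes were not summarized.

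Markers of other cell types moved with these genes, and so did the library medians of all genes. Those of all genes were 1.06 to 1.53 in met-2, 0.77 to 0.97 in lin-65 and 1.47 to 1.49 with both lost. Neuronal markers had values for 12 of 22 genes, with library medians of 1.02 to 1.42 in met-2, 0.58 to 0.72 in lin-65 and 1.38 to 1.48 with both lost. Body wall muscle markers (9 of 12) had medians of 1.57 to 2.18, 0.68 to 1.16 and 2.14 to 2.21, intestine markers (6 of 12) 1.71 to 2.45, 0.72 to 0.99 and 2.10 to 2.15, epidermis markers (6 of 12) 1.20 to 1.55, 0.81 to 0.94 and 1.503 to 1.70, and pharynx markers (8 of 10) 1.51 to 2.06, 0.53 to 0.99 and 2.13 to 2.32. Oocyte and early germline markers (8 of 12) ran the other way in the comparisons with lin-65, at 0.09 to 0.48, 1.41 to 1.67 and 0.90 to 0.91. Between the double mutant and met-2 they ran the same way as the other lists. All 8 were called higher in the double mutant there, where 11.8% of all genes were, and 1 of 8 with centred libraries. With each library centred on its median, 17.7% of all genes were called lower in lin-65 than in met-2. So were 1 of 12 neuronal, 0 of 6 epidermis, 8 of 9 muscle, 4 of 6 intestine and 5 of 8 pharynx markers. All 8 oocyte and early germline markers were called higher, as were 12.4% of all genes. The part of all these markers in the values of unc-13, egl-21 and ida-1 was not tested. The early regulators hlh-1 of muscle, elt-2 and end-3 of intestine, lin-26 of epidermis and pha-4 of pharynx are in none of the tables. Their levels were not analysed here. Other regulators in these lists do have values. grh-1 of epidermis stood at 2.28 ± 0.29, 1.73 ± 0.23 and 2.89 ± 0.06. In the pharynx list, ceh-22 stood at 0.89 ± 0.22, 0.68 ± 0.11 and 1.20 ± 0.21, and ceh-24 at 1.35 ± 0.23, 1.32 ± 0.17 and 1.70 ± 0.19. In whole embryos, more cells of a type and more RNA per cell cannot be told apart.

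**Figure D5:**
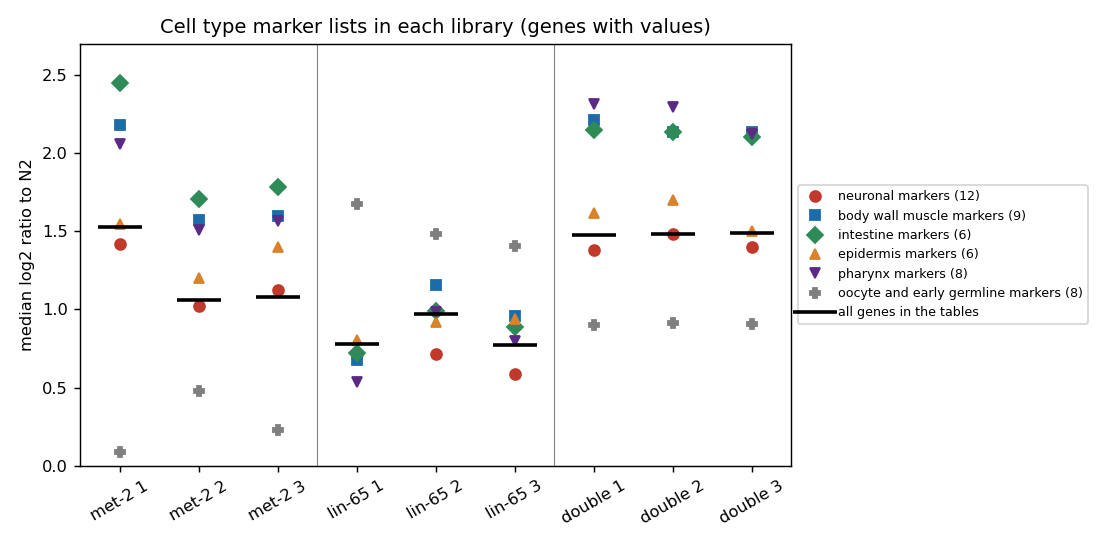
Median log2 ratio to N2 of 6 cell type marker lists (symbols; number of genes with values in the key) and of all 2949 genes (black bars) in each of the 9 libraries (horizontal axis). Markers of differentiated tissues are higher in met-2 and the double mutant than in lin-65, and within met-2 highest in replicate 1, while oocyte and germline markers are highest in lin-65.

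In the double mutant each of the 3 genes stood below the sum of the log2 ratios of the single mutants. The double mutant minus that sum was −1.04 for unc-13, −0.65 for egl-21 and −0.76 for ida-1, and the median over all genes was −0.54. Without met-2 replicate 1 these were −0.79, −0.31 and −0.61, beside a median of −0.37, so that egl-21 moved from below to above the median. The N2 libraries enter every term and have no values here, so no test was made.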

How the data were processed

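The authors deposited 3 tables of log2 values, 1 per mutant, each with 9 mutant libraries in columns and selected genes in rows. Per the submitters' processing notes, edgeR and build ce10 were used; for the aligner, counting, strand handling, scaling and selection, each is not given in the sources used here. Columns were matched to samples by genotype and replicate number. Genes held by several tables had identical values, and the union held 2949 genes. Symbols came from a WormBase name table (2828 matched, 121 did not), and chromosomes and overlaps from the Ensembl 115 annotation of WBcel235, with no coordinate printed because the builds differ.

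Mutants were compared with limma 3.58.1 in R 4.3.3 (all 9 libraries, no covariate, moderated variance). The fit was tested on simulated data. Permutation tests used scipy 1.17.1. The labels call the replicates independent and biological. The 3 genes and all lists were chosen with earlier results of these data known. Besides them, the genes named were the 5 most similar in profile and, per list, mainly the highest means. Promoter motifs, planned at first, were not analysed here. Alternatives were a replicate block, library centring, library weights, other variance models, other gene sets and leaving out libraries.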

Additional observations from a re-analysis of the deposited data

Results flagged for a closer look

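Several results were picked out because the effect against N2 differed between mutants by the limma test of the difference itself. The double mutant exceeded lin-65 by 1.32 log2 units for unc-13, 1.29 for egl-21 and 0.86 for ida-1. lin-65 lay below met-2, by −0.84 for unc-13 and −0.90 for egl-21. These are the calls given above, in comparisons where 74.3% and 41.9% of all genes were called in the same direction. For unc-13 and egl-21 they carry the limit of selection given there.

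egl-21 minus ida-1 was picked out because every lin-65 library lay on one side of 0 and every other library on the opposite side. Its mean was −0.16 in lin-65, against 0.33 in met-2 and 0.28 with both genes lost. Its permutation test, given above, is no support, because the pair was chosen for this separation. Groups of 3 libraries are too small for a search for outlying samples.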

How the results depend on the processing

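The values rest on 3 libraries per mutant, on genes the authors had selected, and on scaling that cannot be checked without counts. Weights per strain, and the lists, gene pairs and sums of single mutants under centring or with a library left out, were chosen after seeing the data.

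Correlations of deviations from the strain means were −0.213 to 0.042 for same-numbered libraries and −0.154 to 0.235 for differently numbered ones. Deviations from means of 3 libraries are tied to one another, so this check cannot exclude a pairing. A replicate block cannot move the limma differences in this balanced design, only their errors. With it no call on the 3 genes changed, and 8.41% of genes were higher in the double mutant than in met-2. A mean-variance trend with robust moderation also changed no call on the 3 genes.

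With each library centred on its median, means became 1.14, 0.68 and 1.36 for unc-13, 0.71, 0.20 and 0.85 for egl-21, and 0.39, 0.35 and 0.57 for ida-1 (met-2, lin-65, double). The double mutant exceeded lin-65 by 0.21 for ida-1, which no longer passed (limma adjusted p = 0.154). The shares of all genes called higher and lower became 4.85% and 9.22% for the double mutant against met-2, 21.6% and 16.5% against lin-65, and 12.4% and 17.7% for lin-65 against met-2. In the secretion and neuronal lists, 2 genes were then lower in the double mutant than in met-2, 31 higher than in lin-65, and 6 higher and 22 lower in lin-65 than in met-2.

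With weights per library the double mutant exceeded met-2 by 0.65 for unc-13, 0.68 for egl-21 and 0.51 for ida-1, all passing, with 67.5% of genes higher and 8.31% lower; lin-65 minus met-2 was −0.34 for ida-1 and passed. Weights per strain gave 4.78% of genes higher in the double mutant than in met-2, each gene's own variance 4.04%, and a fit of 6 libraries 7.39%. None of the 3 genes passed in that comparison under any of these settings. With its own variance egl-21 stayed at −0.90 for lin-65 minus met-2 but missed the threshold (adjusted p = 0.0537, not moderated by limma), with 26.4% of genes lower. Among genes of all 3 tables, which omit unc-13 and egl-21, 37.9% were higher and 2.87% lower in the double mutant than in met-2, 1.51% lower than in lin-65, and 1.96% higher and 23.7% lower in lin-65 than in met-2. In the double mutant table, 3.22% were lower than in met-2, 1.86% lower than in lin-65, and 1.48% higher in lin-65 than in met-2. Of the 82 secretion and neuronal genes, 55 were listed higher for met-2, 14 for lin-65 and 77 for the double mutant. At a 4-fold limit these counts fell to 6, 0 and 25. Of all 2949 genes, 286, 48 and 639 were listed at that limit. Apart from the smaller gene sets, the cause was not tested.

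Leaving out 1 library at a time gave differences between the double mutant and met-2 of 0.30 to 0.73 for unc-13, 0.22 to 0.73 for egl-21 and 0.31 to 0.59 for ida-1, passing only without met-2 replicate 1. The share of genes higher there was 2.1% (without double mutant replicate 3) to 59.7% (without met-2 replicate 1), and lower 3.09% to 6.71%. lin-65 minus met-2 was −0.54 to −0.27 for ida-1, passing without met-2 replicate 2, and the share of genes lower was 26.4% (without lin-65 replicate 1) to 48.4%. In the lists, 54 genes were higher in the double mutant than in met-2 without met-2 replicate 1.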
